A study of Mus musculus with 8 samples.

Results

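*Fn1*, which encodes fibronectin, and 9 other genes for matricellular proteins, matrix glycoproteins and a matrix crosslinker were followed in thymic epithelial cells (TECs), as sorted from the embryo and after culture. The 10 genes were chosen by name from the 56923 genes in each count table. *Fn1*, *Ecm1*, *Spp1* and *Tgm2* were picked because of their levels in these same libraries, so their values are given as a description, with no test. *Tnc*, *Thbs1*, *Sparc*, *Vcan*, *Fbn1* and *Postn* were named for the class of their proteins. All 10 passed the filter on low counts, among 14504 genes that did.

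The TECs came from wild-type (WT) C57BL/6J thymi at E16.5 (embryonic day 16.5) and were sorted as EpCAM+ cells. The sort collected them in medium with serum and the ROCK inhibitor thiazovivin, and no other treatment beyond the culture itself is given. *In vivo* TECs were lysed straight after the sort. 2D-cultured TECs grew for 3 days on laminin-coated plates, and organoids grew in Matrigel, a basement membrane gel, for 3 days (D3) or 7 days (D7). All 3 kinds of culture shared a defined medium with the growth factor FGF7, and the *in vivo* TECs were never in culture. To this medium the organoid protocol added thiazovivin at the start. Each of the 4 groups had 2 libraries, labelled as biological replicates, with the mouse as the unit that the study counts, and whether thymi of several embryos went into a library is not given in the sources used here. The 2D cultures and the organoids differed in matrix protein as well as in shape, and D7 organoids also had more days of culture than 2D. Whether the 2D cultures received thiazovivin is not given in the sources used here. The parts of these differences cannot be told apart.

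Fibronectin is secreted as a dimer and assembled by integrins into fibrils on the cell surface, to which other matrix proteins attach. Matricellular proteins such as tenascin C, thrombospondin 1, SPARC, osteopontin and periostin sit in the matrix without building its framework, and alter how cells adhere and how growth factors reach them. In the thymus, fibronectin and laminin line the perivascular space and the epithelial meshwork along which thymocytes migrate, and much of this matrix is made by mesenchyme, with a share from TECs.

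Total counts were between 5084715 and 7612532 per library, and between 16748 and 19943 genes were detected. Of 7 TEC markers, 6 or 7 had over 3 counts in both libraries of every group. The 7 TEC markers summed to between 3685 and 3989.9 CPM *in vivo*, and 6859.8 and 7661 in 2D. The sums were between 1622 and 1773 in D3 organoids, and 1749.8 and 1834 in D7 organoids. *Krt8* and *Krt18* were highest in 2D and lower in D3 and D7 organoids than *in vivo*. *Krt18* averaged 1741 CPM *in vivo*, 3368 in 2D, 258 in D3 organoids and 489 in D7 organoids. *Epcam* and *Cdh1* were instead higher in organoids than *in vivo*. The epithelial genes *Epcam*, *Cdh1* and *Krt5* were at 66.8 CPM or more in every library. *Foxn1*, the transcription factor that defines TECs, was at 223 and 273 CPM *in vivo*, 8.52 and 4.82 in 2D, 8.76 and 9.61 in D3 organoids, and 60.5 and 84.9 in D7 organoids. *Psmb11*, of cortical TECs, was at 0.975 CPM or less in 2D and D3 organoids, against 522 and 554 *in vivo*. Other cell types were looked for by their markers. The 9 mesenchyme markers summed to between 47.7 and 52.2 CPM *in vivo*, 33.3 and 40.2 in 2D, 22.4 and 26.8 in D3 organoids, and 73.5 and 81.4 in D7 organoids, with *Pdgfra* at 0 counts *in vivo*, *Twist2* at 0 in 2D and *Pdgfrb* at 0 in D3 organoids. These markers did not move as one. *Dcn* averaged 52.1 CPM in D7 organoids and 3.04 in 2D, whereas *Col1a1* averaged 11.3 CPM in 2D and 1.33 in D7 organoids, and *Col3a1* 9.43 and 3.21. CPM is the count relative to the TMM-scaled library size, and 3 counts correspond to under 1 CPM in every library. The 6 thymocyte markers summed to between 230 and 498 CPM *in vivo* and to at most 8.27 in any culture. Endothelial markers reached at most 9.14 CPM, with *Cdh5* at 0 in every library, and myeloid markers at most 13.1. The 5 platelet and megakaryocyte markers reached between 594 and 817 CPM in 2D, almost wholly from *Ppbp*, with *Gp9* and *Gp1bb* at 0 there. Fewer cells of a type and less RNA per cell cannot be told apart in bulk samples. The part of thymocyte RNA, present in the *in vivo* libraries alone at such levels, in the comparisons with *in vivo* TECs was not tested.

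**Figure D1:**
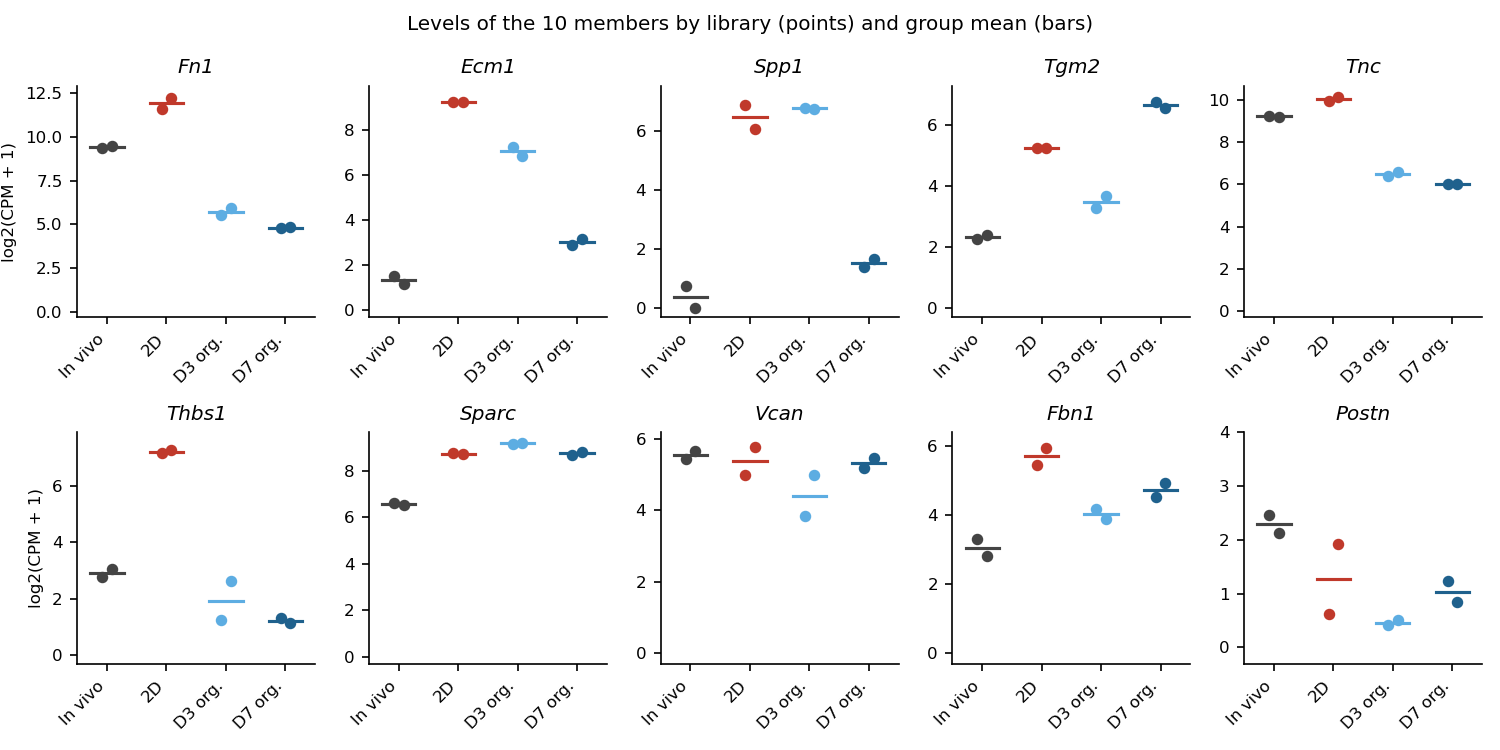
Level of each of the 10 genes in the 8 libraries, as log2(CPM + 1) on the vertical axis, with 1 panel per gene and the 4 groups along the horizontal axis. Points are libraries and bars are means of the 2 libraries. *Fn1* and *Tnc* sit high *in vivo* and in 2D and low in organoids, *Ecm1* and *Spp1* sit high in 2D and D3 organoids, and *Tgm2* is highest in D7 organoids.

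*Fn1* (ENSMUSG00000026193, chr1:71624673-71692419 on the minus strand of GRCm39) was highest in 2D and lowest in organoids. It was at 666 and 723 CPM in the *in vivo* libraries, 3093 and 4804 in 2D, 44.5 and 60.5 in D3 organoids, and 26.8 and 27.6 in D7 organoids. No library of any group overlapped another group, and the order was 2D, *in vivo*, D3 organoids, D7 organoids. As means, this was 3949 ± 1209 CPM (SD, n = 2) in 2D, 694 ± 39.9 *in vivo*, 52.5 ± 11.3 in D3 organoids and 27.2 ± 0.527 in D7 organoids. The fitted level in 2D was 5.69-fold that of *in vivo* TECs (log2 fold change 2.51, SE 0.20). Organoids went the other way, to levels 13.2-fold below *in vivo* TECs at D3 (log2 difference 3.72, SE 0.21) and 25.5-fold below at D7 (4.67, SE 0.22). Between the 2D plate and D7 organoids the difference came to 145-fold, with 17064 and 25935 counts against 217 and 140. The part of mesenchyme RNA in these levels was not tested.

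*Tnc* had the same order of groups as *Fn1*, and *Thbs1* was likewise highest in 2D. *Tnc* (ENSMUSG00000028364, chr4:63878014-63965443, minus strand) encodes tenascin C, a large hexameric glycoprotein of embryonic and wounded tissue that binds fibronectin and loosens cell adhesion to it. Its levels were 610.1 and 592 CPM *in vivo*, 1003 and 1149.5 in 2D, 83.6 and 94.5 in D3 organoids, and 63.3 and 65.0 in D7 organoids. The groups were separate, with 2D highest and D7 organoids lowest. Expression was higher in 2D than *in vivo* by 0.84 on the log2 scale (SE 0.14, adjusted p = 0.00013, edgeR's quasi-likelihood test). It was 6.74-fold lower in D3 organoids than *in vivo* (adjusted p = 5e-10) and 9.36-fold lower in D7 organoids (adjusted p = 1.5e-10). D3 and D7 organoids lay 12.1-fold and 16.8-fold below 2D (adjusted p = 2.9e-11 and 7.2e-12). The fall from D3 to D7 was small, at -0.47 (SE 0.15, adjusted p = 0.033), and no longer passed the threshold of 0.05 without D3 replicate 2 (adjusted p = 0.081), D7 replicate 1 (0.15) or D7 replicate 2 (0.16).

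*Thbs1* (ENSMUSG00000040152, chr2:117941974-117957616, plus strand) encodes thrombospondin 1, which activates latent TGF-beta and binds CD36 and CD47. It was at 5.90 and 7.31 CPM *in vivo*, 141 and 155 in 2D, 1.35 and 5.15 in D3 organoids, and 1.48 and 1.18 in D7 organoids. The 2D libraries stood alone, while the ranges of D3 and D7 organoids overlapped. Expression in 2D was 22.2-fold that of *in vivo* TECs (log2 fold change 4.47, SE 0.32, adjusted p = 5.1e-09), 43.6-fold that of D3 organoids (adjusted p = 1.8e-09) and 107-fold that of D7 organoids (adjusted p = 4.6e-10). Unlike *Fn1*, *Thbs1* was already low *in vivo*. D7 organoids were 4.82-fold below *in vivo* TECs (adjusted p = 0.00098). The 2 D3 libraries, with 8 and 37 counts, lay apart, and the difference between *in vivo* TECs and D3 organoids was 0.97 (SE 0.39, adjusted p = 0.072), 2.22 without D3 replicate 2 (adjusted p = 0.0021) and 0.36 without D3 replicate 1 (0.47). The change from D3 to D7 was -1.30 (SE 0.51, adjusted p = 0.08), -1.91 without D3 replicate 1 (0.0087) and -0.05 without D3 replicate 2 (0.97). Against 2D, the D3 difference was -4.84 or -6.74 when D3 replicate 1 or 2 was left out, and passed the threshold both times.

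*Sparc* rose in every culture. *Sparc* (ENSMUSG00000018593, chr11:55285317-55314067, minus strand) encodes osteonectin, a calcium-binding glycoprotein that binds collagen and weakens focal adhesions. Levels were 97.3 and 91.1 CPM *in vivo*, 433 and 422 in 2D, 576 and 599 in D3 organoids, and 412 and 458 in D7 organoids. The *in vivo* libraries were below all 6 culture libraries, D3 organoids were above the rest, and 2D and D7 organoids overlapped. Relative to *in vivo* TECs, *Sparc* was 4.53-fold higher in 2D (log2 fold change 2.18, SE 0.15, adjusted p = 2.7e-09), 6.24-fold higher in D3 organoids (2.64, SE 0.15, adjusted p = 6.2e-10) and 4.62-fold higher in D7 organoids (2.21, SE 0.15, adjusted p = 5.4e-09). None of these 3 calls was lost with any single library left out. D7 organoids and 2D were within 0.026 of each other (SE 0.14, adjusted p = 0.90). The excess of D3 organoids over 2D was 0.46 (SE 0.14, adjusted p = 0.015), lost without 2D replicate 1 (0.057) or 2D replicate 2 (0.078), and the fall from D3 to D7 was -0.43 (SE 0.14, adjusted p = 0.034), lost without any 1 of the 4 organoid libraries (adjusted p between 0.058 and 0.22).

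*Ecm1* and *Spp1* were low *in vivo* and in D7 organoids, and high in both 3-day cultures. *Ecm1* (ENSMUSG00000028108, chr3:95640761-95646943, minus strand) encodes extracellular matrix protein 1, a secreted glycoprotein of skin and other epithelia that binds perlecan and fibulins. It was at 1.91 and 1.27 CPM *in vivo* (11 and 9 counts), 599.7 and 609.8 in 2D, 152 and 114 in D3 organoids, and 6.43 and 7.88 in D7 organoids (52 and 40 counts). All 4 groups were separate. The fitted 2D level was 383-fold that of *in vivo* TECs (log2 fold change 8.58, SE 0.27). D3 organoids were 84.2-fold above *in vivo* TECs (6.40, SE 0.26) and D7 organoids 4.49-fold above (2.17, SE 0.33). The level fell by 4.23 on the log2 scale from D3 to D7 (SE 0.21), that is 18.8-fold.

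The stretch upstream of *Ecm1* is shown because it was the single member promoter that held a searched motif. Promoter windows of 300 bases, from RefSeq (GRCm38.p6), were given for 7 of the 10 genes. Those of *Fn1*, *Tgm2* and *Thbs1* were not in the table. Both strands were searched for TGANTCA (the AP-1 site), TGACGTCA (the cyclic AMP response element) and GGAATG (a TEAD site), none of which contains another. Over all 32851 promoters in the table, 7.81% held TGANTCA, 1.79% TGACGTCA and 14.7% GGAATG. The window was placed on GRCm39 by an exact match, at chr3:95646832-95647131 on the minus strand. Of it, the 193 bases up to the end of the match, chr3:95646939-95647131, run 5′ to 3′ with the AP-1 letters in capitals:
Ecm1: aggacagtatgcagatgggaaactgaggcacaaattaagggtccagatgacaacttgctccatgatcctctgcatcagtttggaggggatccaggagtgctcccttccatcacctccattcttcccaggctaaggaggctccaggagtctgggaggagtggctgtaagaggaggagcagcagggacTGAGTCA
The match begins at position -64 from the RefSeq start, and its last 5 bases lie within transcripts of *Ecm1* in GENCODE vM39, which begin upstream of the RefSeq start. No binding was measured here, so the match describes the sequence alone.

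*Spp1* (ENSMUSG00000029304, chr5:104582165-104589235, plus strand) encodes osteopontin, a phosphoprotein with an integrin-binding motif that also ligates CD44. It was at 0.694 and 0 CPM *in vivo* (4 and 0 counts), 116 and 65.2 in 2D, 108 and 106 in D3 organoids, and 1.61 and 2.17 in D7 organoids (13 and 11 counts). The 2D and D3 libraries overlapped, and both groups were far above the others. Since 1 *in vivo* library had 0 counts, the ratio of pooled CPM is given first. It was 292 for 2D over *in vivo* TECs (exact 95% interval from counting error alone, 114 to 1075), 345 for D3 organoids (134 to 1268) and 5.87 for D7 organoids (2.02 to 23.3). The fitted log2 fold change for 2D over *in vivo* TECs was 8.09 (SE 0.49), but 12.17 without *in vivo* replicate 1 and 6.99 without *in vivo* replicate 2. For D3 organoids it was 8.34 (12.41 and 7.24), and for D7 organoids 2.48 (6.55 and 1.37). D3 organoids over 2D gave 0.24 (SE 0.26), which turned to -0.12 without 2D replicate 2. *Spp1* then fell by 5.85 on the log2 scale from D3 to D7 (SE 0.38), 57.8-fold.

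*Fbn1* was higher in every culture than *in vivo*, whereas *Vcan* was called in D3 organoids alone, as lower. *Fbn1* (ENSMUSG00000027204, chr2:125142514-125349913, minus strand) encodes fibrillin 1, the backbone of the microfibrils that scaffold elastin and store latent TGF-beta. It was at 8.85 and 6.05 CPM *in vivo*, 43.0 and 60.0 in 2D, 17.2 and 13.7 in D3 organoids, and 21.9 and 29.4 in D7 organoids. No groups overlapped. Over *in vivo* TECs the difference was 6.96-fold in 2D (log2 fold change 2.80, SE 0.29, adjusted p = 4.9e-07), 2.08-fold in D3 organoids (1.06, SE 0.30, adjusted p = 0.012) and 3.44-fold in D7 organoids (1.78, SE 0.29, adjusted p = 0.00013). Below 2D lay D3 organoids (-1.74, SE 0.27, adjusted p = 5.7e-05) and D7 organoids (-1.01, SE 0.26, adjusted p = 0.0041). D3 and D7 organoids differed by 0.73 (SE 0.27, adjusted p = 0.066). The D3 difference from *in vivo* TECs was lost without *in vivo* replicate 2 (adjusted p = 0.1) or D3 replicate 1 (0.098), and the D7 difference from 2D without 2D replicate 2 (0.075) or D7 replicate 1 (0.065).

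*Vcan* (ENSMUSG00000021614, chr13:89803431-89890814, minus strand) encodes versican, a large chondroitin sulphate proteoglycan that binds hyaluronan. The libraries gave 42.3 and 49.9 CPM *in vivo*, 30.6 and 54.1 in 2D, 13.3 and 30.6 in D3 organoids, and 35.7 and 42.8 in D7 organoids. The D3 libraries were below those of *in vivo* TECs and of D7 organoids, and the 2D libraries ranged from the level of the higher D3 library to the highest of all 8. D3 organoids were 2.08-fold below *in vivo* TECs (log2 difference 1.06, SE 0.32, adjusted p = 0.019) and 1.91-fold below 2D (0.93 lower, adjusted p = 0.029). Both calls turned on single libraries. Without D3 replicate 1 they were 0.59 (adjusted p = 0.22) and -0.47 (0.29), without D3 replicate 2 they were 1.73 (0.0024) and -1.65 (0.0025), the first was lost without *in vivo* replicate 2 (0.09) and the second without 2D replicate 2 (-0.47, 0.36). The other differences of *Vcan* were 0.13 between *in vivo* TECs and 2D (SE 0.31, adjusted p = 0.78), 0.24 between *in vivo* TECs and D7 organoids (SE 0.31, 0.59), -0.11 from 2D to D7 organoids (SE 0.31, 0.79), and 0.82 from D3 to D7 (SE 0.32, 0.079), the last being 1.49 (0.011) without D3 replicate 2.

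*Postn* (ENSMUSG00000027750, chr3:54268501-54298471, plus strand), for periostin, a fibroblast product that binds fibronectin and tenascin C, was scarce. It was at 4.51 and 3.37 CPM *in vivo* (26 and 24 counts), 0.544 and 2.78 in 2D (3 and 15 counts), 0.337 and 0.418 in D3 organoids (2 and 3 counts), and 1.36 and 0.788 in D7 organoids (11 and 4 counts). The *in vivo* libraries were the highest, D3 organoids the lowest, and 2D overlapped D7 organoids. *In vivo* TECs were above D3 organoids by 3.31 (SE 1.05, adjusted p = 0.026), a pooled ratio of 10.2 (exact 95% interval from counting error alone, 4.09 to 32.7), and the call was lost without *in vivo* replicate 1 (0.063), D3 replicate 1 (0.11) or D3 replicate 2 (0.089). The other 5 comparisons of *Postn* had adjusted p between 0.14 and 0.65.

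*Tgm2* (ENSMUSG00000037820, chr2:157958322-157988359, minus strand) went the opposite way to *Fn1* within organoids. Its product, transglutaminase 2, crosslinks glutamine to lysine side chains in fibronectin and other matrix proteins and acts as a coreceptor for fibronectin beside integrins. It was at 3.82 and 4.22 CPM *in vivo*, 37.3 and 37.2 in 2D, 8.76 and 11.7 in D3 organoids, and 108 and 94.8 in D7 organoids. The 4 groups were separate, in the order D7 organoids, 2D, D3 organoids, *in vivo*. D7 organoids had 25.1-fold the level of *in vivo* TECs (log2 fold change 4.65, SE 0.25), 9.87-fold that of D3 organoids (3.30, SE 0.22) and 2.73-fold that of 2D (1.45, SE 0.20). *Tgm2* overlaps *Rprd1b* on the other strand, which had between 216 and 795 counts per library, and whether the counting used strand is not given in the sources used here. Of the counted genes that overlap the other 9 members, none had over 24 counts in any library.

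**Figure D2:**
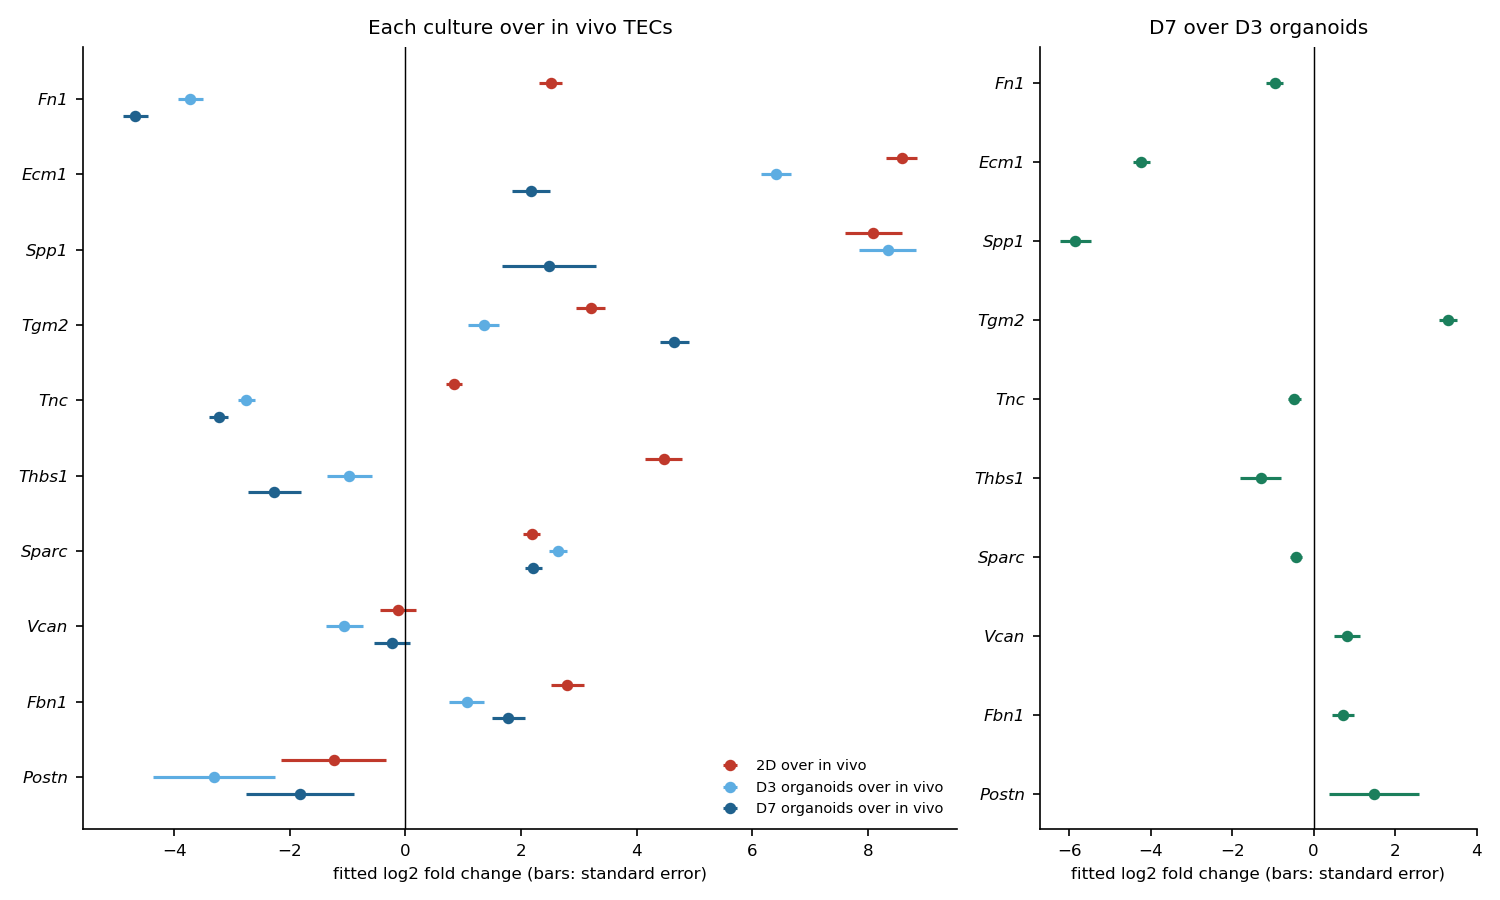
Fitted log2 fold changes of the 10 genes, with bars of 1 standard error. The left panel sets each culture over *in vivo* TECs and the right panel sets D7 over D3 organoids. *Fn1* lies at 2.51 in 2D but at -3.72 and -4.67 in organoids. *Ecm1*, *Spp1*, *Tgm2*, *Sparc* and *Fbn1* lie above 0 in all 3 cultures. From D3 to D7 *Tgm2* moves to 3.30 while *Spp1* and *Ecm1* move to -5.85 and -4.23.

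Counted over the 6 genes named by class, 4 passed the threshold as higher in 2D than *in vivo* (*Tnc*, *Thbs1*, *Sparc* and *Fbn1*), where 19.9% of all genes tested were higher in 2D and 21.7% higher *in vivo*. Against D3 organoids, 3 were higher *in vivo* (*Tnc*, *Vcan* and *Postn*) and 2 lower, beside 14.0% and 14.1% of all genes. Against D7 organoids, 2 were higher *in vivo* (*Tnc* and *Thbs1*) and 2 lower, beside 16.8% and 18.0%. From 2D to D3 organoids, 1 was higher (*Sparc*) and 4 were lower (*Tnc*, *Thbs1*, *Vcan* and *Fbn1*), beside 19.3% and 19.1%. D7 organoids were below 2D for 3 of them (*Tnc*, *Thbs1* and *Fbn1*), where 21.1% of all genes were lower and 24.4% higher. From D3 to D7, 2 fell (*Tnc* and *Sparc*), where 9.90% of all genes fell and 10.9% rose. The 6 comparisons reuse the same 4 groups and are not independent of each other.

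Among 28 other matricellular genes, 22 had a count and 14 could be tested. In the comparison of *in vivo* TECs with 2D, 6 were higher *in vivo* and 6 higher in 2D, beside 21.7% and 19.9% of all genes. The 3 CCN genes that could be tested, whose short secreted products bind integrins and growth factors, were highest in 2D, as *Thbs1* was, while *Ccn3*, *Ccn5* and *Ccn6* had at most 5 counts in any library. *Ccn2* was at 0.347 and 1.41 CPM *in vivo*, 303 and 227 in 2D, 4.55 and 3.48 in D3 organoids, and 0.989 and 0 in D7 organoids. *Ccn4* reached 563 and 434 CPM in 2D against 3.12 and 4.08 *in vivo*, a log2 fold change of 7.09 (SE 0.26, adjusted p = 2.6e-12). Unlike *Thbs1*, *Ccn4* was also above *in vivo* TECs in organoids, at 54.1 and 56.3 CPM in D3 (15.1-fold, adjusted p = 3.3e-09) and 28.9 and 19.9 in D7 (6.76-fold, adjusted p = 4.1e-07). For *Ccn2*, 2D was above *in vivo* TECs by 8.13 (SE 0.40, adjusted p = 6.7e-11), or by between 7.54 and 9.50 without 1 of the *in vivo* libraries. *Ccn1* was at 93.7 and 81.9 CPM in 2D and at 3.54 or less in organoids, lower in D3 organoids by 5.23 (adjusted p = 2.7e-09) and in D7 organoids by 6.81 (adjusted p = 5.4e-10). Leaving out D3 replicate 1 or 2 gave -6.11 or -4.61 for the first of these. D7 organoids over 2D gave -8.74 for *Ccn2* (adjusted p = 7e-11), and -13.64 or -8.03 without D7 replicate 1 or 2, the latter library having 0 counts.

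Other matricellular genes were higher *in vivo* than in 2D. *Spock2*, for the proteoglycan testican 2, was at 153 and 182 CPM *in vivo*, 5.80 and 4.26 in 2D, 8.25 and 15.5 in D3 organoids, and 40.4 and 29.0 in D7 organoids. It was 5.05 above 2D *in vivo* (SE 0.30, adjusted p = 6e-10) and rose from D3 to D7 by 1.54 (SE 0.27, adjusted p = 0.0007). *Spock3*, for testican 3, was 4.17 higher *in vivo* than in 2D (SE 0.54, adjusted p = 8.3e-06), where it had only 6 and 3 counts. *Thbs2*, for thrombospondin 2, was lowest in 2D, where *Thbs1* was highest, with 47.9 and 52.4 CPM *in vivo*, 3.63 and 3.89 in 2D, 8.93 and 8.64 in D3 organoids, and 23.0 and 20.9 in D7 organoids. Like *Thbs1* against D7 organoids, it was higher *in vivo* than in organoids. It exceeded D3 organoids by 2.51 (SE 0.24, adjusted p = 4.3e-07) and D7 organoids by 1.19 (SE 0.23, adjusted p = 0.00055), and rose from D3 to D7 by 1.32 (adjusted p = 0.0012).

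A further group was high in organoids. *Sparcl1*, for hevin, the closest relative of SPARC, was at 13.2 and 4.92 CPM *in vivo*, 27.7 and 21.7 in 2D, 634 and 593 in D3 organoids, and 532 and 505 in D7 organoids. It was 4.63 above 2D in D3 organoids (SE 0.27, adjusted p = 6.3e-10) and 4.39 above in D7 organoids (SE 0.26, adjusted p = 7.6e-10). Over *in vivo* TECs it was 6.12 higher in D3 organoids (adjusted p = 9.1e-11) and 5.87 higher in D7 organoids (adjusted p = 1.7e-10), or 6.95 and 6.71 without *in vivo* replicate 1. For *Sparc* the differences of D3 and D7 organoids from 2D had been 0.46 and 0.026. *Dmp1*, for a bone phosphoprotein of the same family as osteopontin, had 0 counts in both *in vivo* libraries, 55 and 27 counts in 2D (at most 9.97 CPM), 90.1 and 67.6 CPM in D3 organoids, and 40.7 and 35.7 in D7 organoids. Taken over a floor of 3 counts per library, the *Dmp1* level in D3 organoids was at least 167-fold higher than *in vivo*, and that in D7 organoids at least 81.0-fold higher. D3 organoids exceeded 2D by 3.39 (SE 0.30, adjusted p = 1.7e-07). *Fstl1*, for a secreted follistatin-like glycoprotein, was 2.81 above 2D in D7 organoids (SE 0.21, adjusted p = 1.2e-08), with 347 and 383 CPM. Outside this group, *Tgfbi*, for a collagen- and integrin-binding protein induced by TGF-beta, had its highest mean in 2D, as did *Ccn4*. *Tgfbi* averaged 41.0 CPM in 2D, 27.7 in D3 organoids, 7.57 in D7 organoids and 9.24 *in vivo*. From D3 to D7, *Tgfbi* fell by 1.87 (SE 0.31, adjusted p = 0.00051) and *Ccn4* by 1.16 (SE 0.20, adjusted p = 0.00071).

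In counts, D3 organoids were above 2D for 9 of the 14 and below for 3, beside 19.3% and 19.1% of all genes, and D7 organoids above for 9 and below for 4, beside 24.4% and 21.1%. *In vivo* TECs were above D3 organoids for 3 and below for 7, beside 14.0% and 14.1%, and above D7 organoids for 4 and below for 6, beside 16.8% and 18.0%. Between D3 and D7, 4 rose and 5 fell, beside 10.9% and 9.90%. The median log2 fold change of the 14 was 1.23 for D3 organoids over 2D and 2.30 for D7 organoids over 2D, where the medians of all genes tested were 0.024 and 0.10. For *in vivo* TECs over 2D, D3 and D7 organoids it was -0.39, -1.23 and -0.81, beside 0.056, 0.01 and -0.012, and for D7 over D3 organoids -0.34 beside 0.059.

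**Figure D3:**
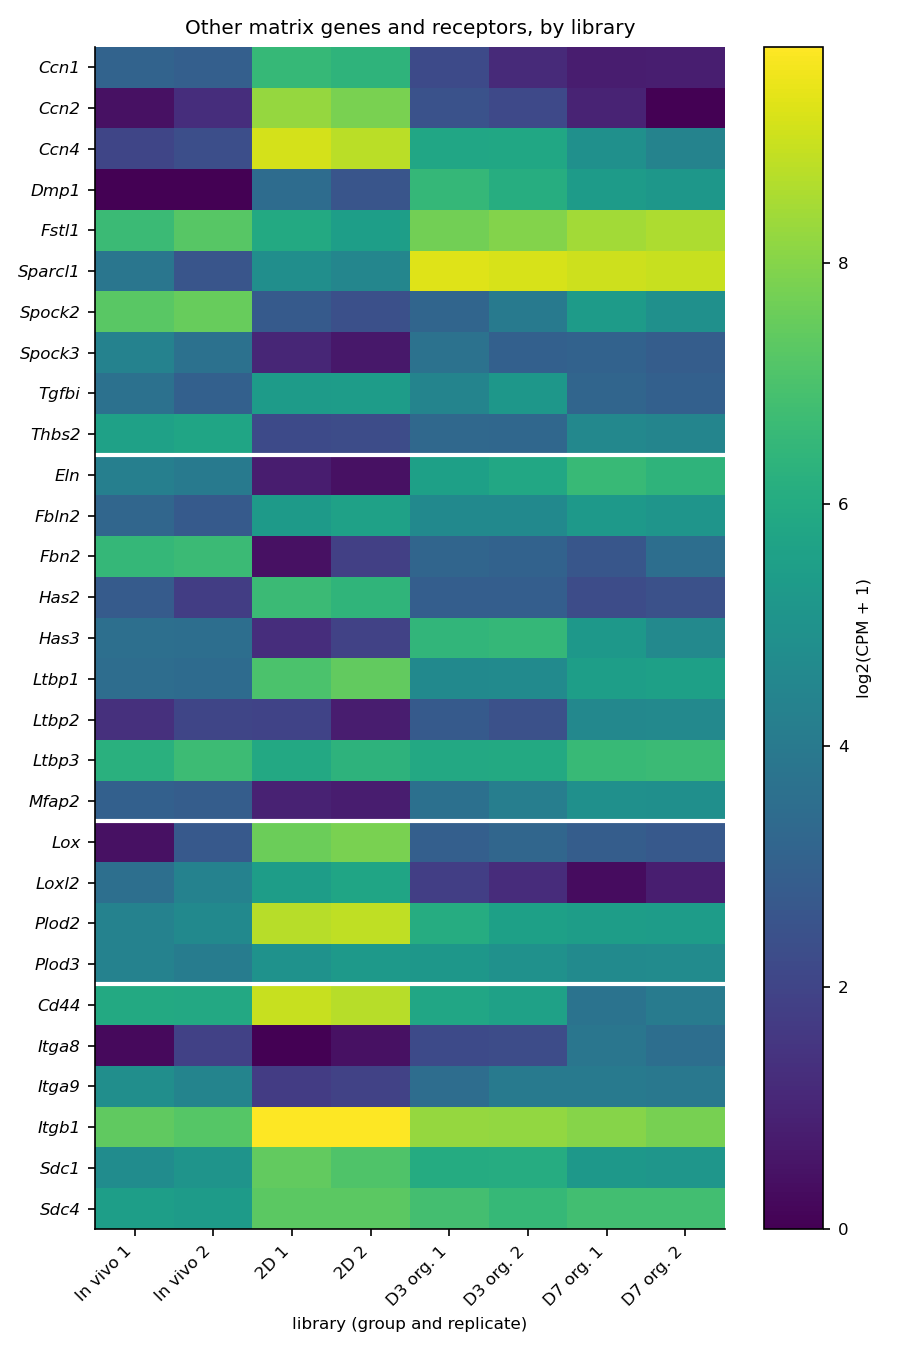
Levels of the named genes of the 4 other lists in each of the 8 libraries, as log2(CPM + 1) by colour. White lines part, from the top, matricellular glycoproteins, microfibril, elastic fibre and hyaluronan genes, crosslinkers, and receptors. *Ccn2*, *Ccn4*, *Lox*, *Plod2*, *Cd44* and *Itgb1* are brightest in the 2D columns, and *Sparcl1* in the organoid columns.

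Of 24 genes for fibrillin microfibrils, elastic fibres and the hyaluronan matrix, 21 had a count and 15 could be tested. *Fbn2*, for the fibrillin of embryonic tissue, was highest *in vivo* and lowest in 2D, where *Fbn1* had been lowest and highest. It was at 89.7 and 102 CPM *in vivo*, 0.363 and 2.59 in 2D (2 and 14 counts), 8.09 and 7.52 in D3 organoids, and 5.19 and 10.6 in D7 organoids. *In vivo* TECs exceeded D3 organoids by 3.61 (SE 0.35, adjusted p = 4.3e-07), D7 organoids by 3.64 (SE 0.35, adjusted p = 4.8e-07) and 2D by 6.01 (SE 0.44, adjusted p = 8e-09), the last being 5.19 or 7.96 without 2D replicate 1 or 2. *Eln*, for elastin, was nearly undetected in 2D, at 4 and 2 counts, with 17.5 and 15.5 CPM *in vivo*, 45.7 and 57.5 in D3 organoids, and 95.2 and 82.4 in D7 organoids. D7 organoids were above *in vivo* TECs for *Eln* by 2.43 (SE 0.22, adjusted p = 2e-07), and D3 and D7 organoids above 2D by 6.50 (adjusted p = 3.8e-10) and 7.29 (adjusted p = 5.8e-11). *Mfap2*, for a microfibril-associated glycoprotein, was 5.09 above 2D in D7 organoids (SE 0.42, adjusted p = 4.1e-08), with only 5 and 4 counts in 2D.

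The hyaluronan synthases split between the cultures. *Has2* was at 100.3 and 83.4 CPM in 2D, with between 2.39 and 6.57 in the other 6 libraries, and was above *in vivo* TECs by 4.47 (SE 0.32, adjusted p = 6.4e-09), or 5.25 without *in vivo* replicate 1. *Has3* was at 10.9 and 10.5 CPM *in vivo*, 1.45 and 2.78 in 2D, 85.1 and 91.1 in D3 organoids, and 36.2 and 23.4 in D7 organoids. It was 5.37 higher in D3 organoids than in 2D (SE 0.33, adjusted p = 1.2e-09) and fell from D3 to D7 by 1.55 (SE 0.24, adjusted p = 0.00028). *Ltbp1*, which holds latent TGF-beta on microfibrils, was highest in 2D, at 127 and 174 CPM, and above *in vivo* TECs there by 3.90 (SE 0.22, adjusted p = 2.8e-10). *Ltbp2*, which binds fibrillin and not TGF-beta, was highest in D7 organoids, at 22.6 and 23.6 CPM, and above D3 organoids by 2.18 (SE 0.45, adjusted p = 0.0027). *Fbln2*, for the elastic fibre protein fibulin 2, was 1.74 higher in D3 organoids than *in vivo* (SE 0.26, adjusted p = 5.6e-05). In 2D it was 2.60 higher than *in vivo* (SE 0.25, adjusted p = 2.7e-07). Its mean was highest in 2D, at 43.5 CPM, against 23.9 in D3 organoids, 36.1 in D7 organoids and 7.2 *in vivo*.

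Of the 15 genes tested, 7 were higher and 3 lower in D3 organoids than in 2D, beside 19.3% and 19.1% of all genes, and 9 higher and 2 lower in D7 organoids than in 2D, beside 24.4% and 21.1%. *In vivo* TECs were above 2D for 5 and below for 3 (21.7% and 19.9% of all genes), above D3 organoids for 2 and below for 8 (14.0% and 14.1%), and above D7 organoids for 1 and below for 8 (16.8% and 18.0%). From D3 to D7, 5 rose and 1 fell, beside 10.9% and 9.90%. The 3 genes below 2D in D3 organoids and the 2 below it in D7 organoids were thus near or under the share of all genes. The median log2 fold changes were 1.08 and 1.38 for D3 and D7 organoids over 2D, 0.37, -1.07 and -1.49 for *in vivo* TECs over 2D, D3 and D7 organoids, and 0.30 for D7 over D3 organoids, beside the medians of all genes given above.

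Of 15 matrix crosslinkers other than *Tgm2*, 12 had a count and 9 could be tested. The comparison with *in vivo* TECs called 5 of the 9 as higher in 2D and 0 as lower, beside 19.9% and 21.7% of all genes. *F13a1*, for the A subunit of factor XIII, averaged 3.43 CPM *in vivo* and 0.552 in 2D (adjusted p = 0.073), and *Loxl3*, for a lysyl oxidase relative, 3.23 in D3 organoids and 0.463 in 2D (adjusted p = 0.068), both named here after their values were seen. With 0 counts in both D3 libraries, *F13a1* was called lower there than *in vivo* (adjusted p = 0.0043) and than in D7 organoids (adjusted p = 0.045). It had 12 and 2 counts in D7 organoids. The D7 call was lost without D7 replicate 2 or without any 1 of the D3 or 2D libraries. *Lox*, for lysyl oxidase, which crosslinks collagen and elastin, was at 0.347 and 5.62 CPM *in vivo* (2 and 40 counts), 192 and 227 in 2D, 6.74 and 8.50 in D3 organoids, and 6.31 and 5.71 in D7 organoids. D3 organoids were below 2D by 4.77 (SE 0.39, adjusted p = 4.7e-08) and D7 organoids by 5.11 (SE 0.41, adjusted p = 2.4e-08). The *in vivo* libraries differed from each other, and 2D over *in vivo* TECs was 6.03 (SE 0.44, adjusted p = 6.7e-09), 5.21 without *in vivo* replicate 1 and 9.16 without *in vivo* replicate 2. *Plod2*, for a lysyl hydroxylase that prepares collagen for crosslinking, was at 19.4 and 24.2 CPM *in vivo* and 422 and 455 in 2D, a difference of 4.32 (SE 0.21, adjusted p = 4.4e-11). *Loxl2*, for a lysyl oxidase relative that acts on basement membrane collagen, was at 10.8 and 19.1 CPM *in vivo*, 42.4 and 52.4 in 2D, 2.53 and 1.39 in D3 organoids, and 0.247 and 0.788 in D7 organoids (2 and 4 counts). This was the order seen for *Fn1*. *Loxl2* was higher *in vivo* than in D3 organoids by 2.95 (SE 0.41, adjusted p = 3e-05) and than in D7 organoids by 4.97 (SE 0.52, adjusted p = 1.3e-06), the latter between 4.22 and 5.81 without 1 of the D7 libraries. D3 organoids were below 2D for 4 of the 9, beside 19.1% of all genes, and D7 organoids for 4, beside 21.1%, with the other 5 not called each time. *In vivo* TECs were above D3 organoids for 2 and below for 3, beside 14.0% and 14.1%. The 1 gene above and 2 below D7 organoids, beside 16.8% and 18.0%, and the 1 that rose and 1 that fell from D3 to D7, beside 10.9% and 9.90%, were near the share of all genes. Medians were -1.66, -0.85 and -0.49 for *in vivo* TECs over 2D, D3 and D7 organoids, -2.97 and -0.56 for D3 and D7 organoids over 2D, and -0.34 for D7 over D3 organoids.

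All 16 genes for receptors of fibronectin and matricellular proteins had a count and 12 could be tested. In 2D, 10 of the 12 were higher than *in vivo* and 1 was lower, beside 19.9% and 21.7% of all genes. *Itgb1*, for the beta subunit of most fibronectin, laminin and collagen integrins, was at 169 and 147 CPM *in vivo*, 883 and 866 in 2D, 299 and 292 in D3 organoids, and 259 and 217 in D7 organoids, and 2D exceeded *in vivo* TECs by 2.47 (SE 0.15, adjusted p = 1.1e-09) and D3 organoids by 1.56 (SE 0.15, adjusted p = 2.7e-07). *Cd44*, a receptor for hyaluronan and osteopontin, was at 60.9 and 59.2 CPM *in vivo*, 498 and 428 in 2D, 54.9 and 47.5 in D3 organoids, and 12.4 and 16.0 in D7 organoids. It was 2.95 higher in 2D than *in vivo* (SE 0.17, adjusted p = 5.1e-10) and fell from D3 to D7 by 1.87 (SE 0.19, adjusted p = 5.1e-06). The syndecans are cell surface proteoglycans that bind fibronectin alongside integrins. *Sdc4* was higher than *in vivo* by 1.31 in D3 organoids (SE 0.17, adjusted p = 1.4e-05) and by 1.41 in D7 organoids (SE 0.17, adjusted p = 6e-06). *Sdc1* was higher than *in vivo* by 1.13 in D3 organoids (SE 0.19, adjusted p = 0.00023) and fell from D3 to D7 by 0.87 (SE 0.19, adjusted p = 0.0035).

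*Itga9* was the 1 tested receptor gene called lower in 2D than *in vivo*. It encodes the alpha 9 subunit, part of a receptor for tenascin C and osteopontin, and was at 27.6 and 20.2 CPM *in vivo*, 2.36 and 2.78 in 2D, 10.3 and 14.9 in D3 organoids, and 15.2 and 14.2 in D7 organoids. *In vivo* TECs exceeded 2D by 3.21 (SE 0.36, adjusted p = 1.5e-06), and D7 organoids exceeded 2D by 2.51 (SE 0.37, adjusted p = 3e-05). *Itga8*, for a receptor subunit that binds fibronectin and tenascin C, was at 13.2 and 10.6 CPM in D7 organoids, with 0 and 2 counts in 2D, and D7 organoids exceeded *in vivo* TECs by 2.99 (SE 0.75, adjusted p = 0.005). The *in vivo* libraries had 1 and 19 counts of *Itga8*, so that value was 2.15 without *in vivo* replicate 1 and 5.95 without replicate 2, and the call was lost without D7 replicate 1 (adjusted p = 0.058). D7 organoids exceeded 2D by 5.88 for *Itga8* (adjusted p = 0.00017), or 4.93 and 9.25 without 2D replicates 1 and 2. *Itga4*, for a fibronectin and osteopontin receptor subunit that thymocytes also carry, did not pass the filter on low counts and is named after its values were seen. It had 209 and 118 counts *in vivo*, 0 and 1 in 2D, 4 and 1 in D3 organoids, and 7 and 5 in D7 organoids, and the part of thymocyte RNA in this was not tested. Among the 12, D3 organoids were above 2D for 2 and below for 9 (19.3% and 19.1% of all genes), as were D7 organoids (24.4% and 21.1%). *In vivo* TECs were above D3 organoids for 1 and below for 4 (14.0% and 14.1%), and above D7 organoids for 1 and below for 5 (16.8% and 18.0%). The 1 that rose and 2 that fell from D3 to D7 stood beside 10.9% and 9.90% of all genes. Medians were -2.16, -0.28 and -0.44 for *in vivo* TECs over 2D, D3 and D7 organoids, -1.40 and -1.41 for D3 and D7 organoids over 2D, and 0.16 for D7 over D3 organoids.

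**Figure D4:**
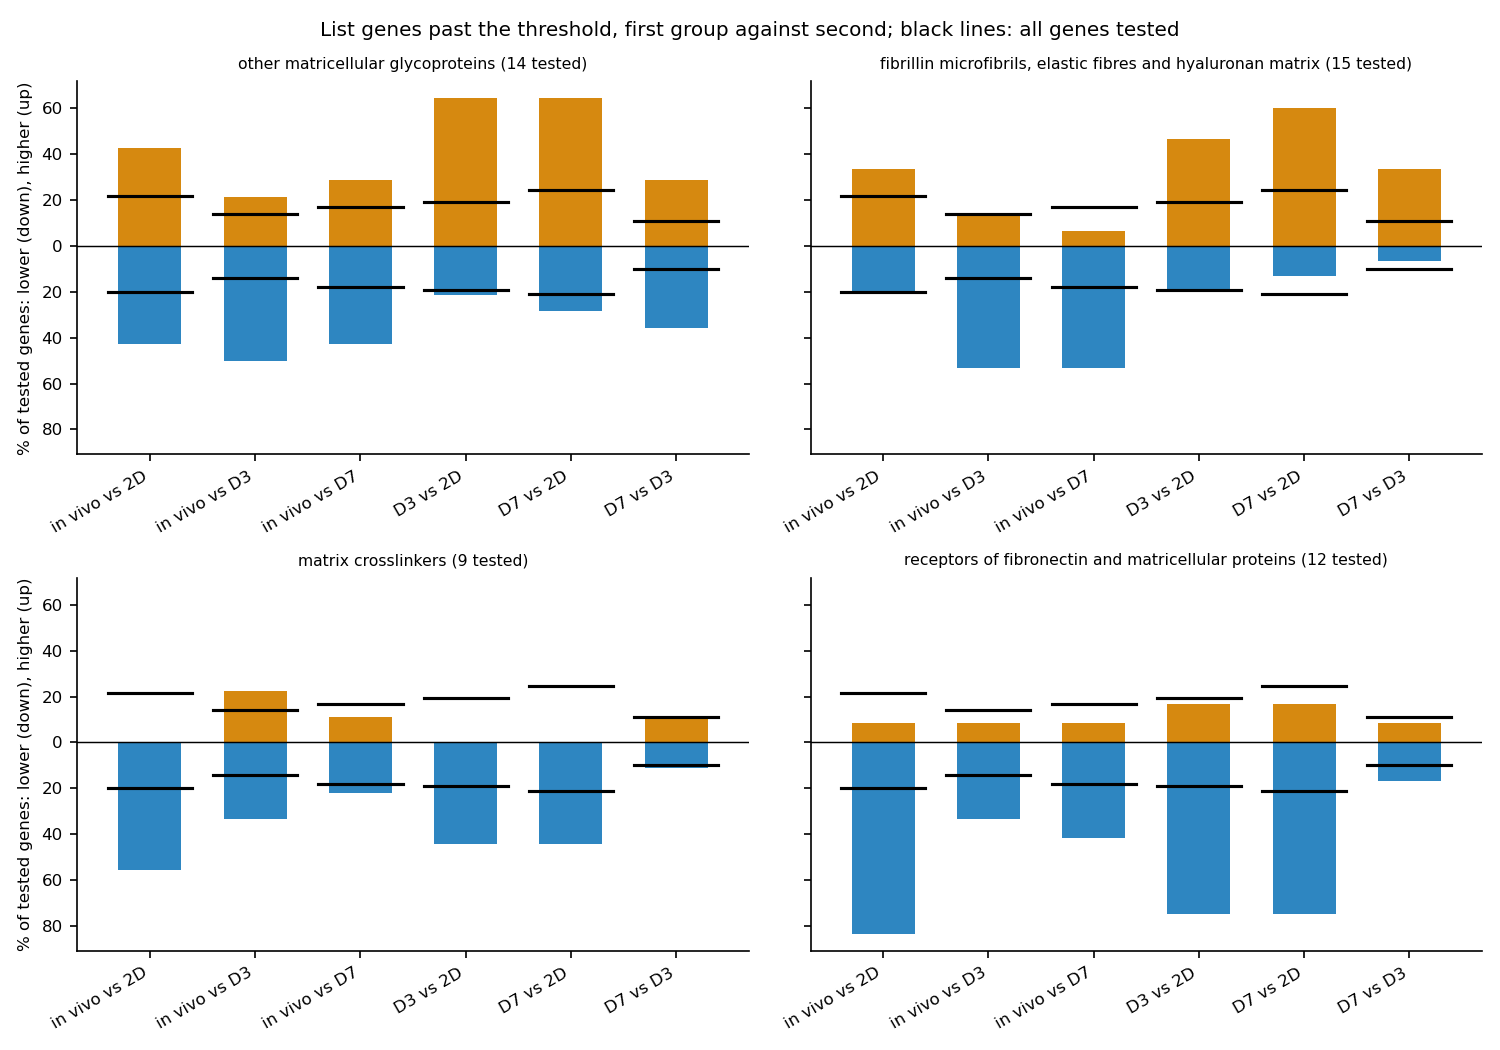
Share of tested genes of each list past the threshold in each of the 6 comparisons, in percent, drawn upward where the first-named group was higher and downward where it was lower. Black lines give the share over all 14504 genes tested. For receptors, 10 of 12 fall below the axis for *in vivo* versus 2D, where 19.9% of all genes do.

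The genes whose pattern over the 8 libraries was closest to each picked gene were found by the root mean square difference of centred log2 CPM, among 9009 genes with a mean of at least 10 CPM. For *Fn1* they were *Ccl21a* (difference 0.69), a chemokine of medullary TECs, *Loxl2* (0.77) and *Krt17* (0.79), a keratin of activated epithelium. *Ccl21a* shares 58.7% of its 3′ end sequence with *Ccl21b*, *Ccl21d*, *Ccl21e* and *Ccl21f*, so its counts are uncertain. *Loxl2* shares 8.28% of its 3′ end sequence with other genes, and *Krt17* 9.53%. For *Ecm1* they were *Prg4* (0.74), for the joint lubricant lubricin, *Vsnl1* (1.16), for a neuronal calcium sensor, and *Adamtsl4* (1.19), whose product binds fibrillin 1. *Prg4* overlaps *Tpr* (up to 5740 counts in a library), *Vsnl1* overlaps *Smc6* (up to 2694) and *Loxl2* overlaps *R3hcc1* (up to 182). Other genes named in the text have overlapping genes with fewer counts. *Itga9* overlaps *Gm2415* (up to 85), *Plod2* overlaps *B430319G15Rik* (68), *Cp* overlaps *Hps3* (36) and *Ccn1* overlaps *Gm17501* (31). *Has2* overlaps *Has2os* (28), *Ccn2* overlaps *Gm15270* (26), *Lox* overlaps *Gm41724* (21) and *Itga8* overlaps *E030013I19Rik* (21). Since the strand setting is not known, the counts of these genes are uncertain too. *Spp1* was nearest to *Ecm1* (1.24), then *Prg4* (1.42) and *Dkk3* (1.79). Since *Spp1* and *Ecm1* were both picked for their levels in these libraries, their nearness is a description. For *Tgm2* they were *Tspan1* (0.33), for a tetraspanin, *Cp* (0.43), for ceruloplasmin, and *Msln* (0.51), for mesothelin. *Tspan1* averaged 1.03 CPM *in vivo*, 13.2 in 2D, 4.09 in D3 organoids and 31.1 in D7 organoids, which is the order of *Tgm2*. Likeness here is over 8 libraries of 4 groups, in which many genes share the differences between groups.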

How the data were processed

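Libraries were prepared with QuantSeq, a kit that primes at poly(A) tails and reads only transcript 3′ ends, so counts do not scale with gene length. The authors aligned reads to GRCm39 with STAR and deposited raw counts per Ensembl gene for each of the 8 libraries. The submitters' processing notes name R 4.1.2, edgeR and limma. The annotation release, strand setting and treatment of multiply mapped reads are not given in the sources used here. IDs were matched to GENCODE vM39 symbols (56236 of 56923, with 687 unmatched).

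The deposited counts were analysed with edgeR 4.0.16 in R 4.3.3. A gene was kept if 3 or more libraries had at least 1 CPM and TMM factors applied (between 0.88 and 1.09), and the 6 comparisons of 4 groups were tested by edgeR's quasi-likelihood test in 1 model of all libraries, with p-values adjusted by Benjamini-Hochberg across 14504 genes and called at 0.05. The study's own test was limma-voom, run here as an alternative (limma 3.58.1) beside DESeq2 1.42.0. An exact two-sided test of 2 libraries against 2 cannot go below p = 0.333, so calls rest on a spread shared across genes and groups. Replicates differed beyond counting noise (chi-square per degree of freedom between 6.82 and 8.7).

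The members and the 4 gene lists were chosen with earlier results of these data known. From each list, the text names per comparison and direction at most 2 called genes with the largest change, provided that the higher group had 10 CPM or more in each library and the groups did not overlap. Ribosomal RNA genes took between 22.7% and 29.4% of counts. A library with 3 counts or fewer of a gene was taken as at the floor. Counting intervals are exact 95% intervals and cover counting error only. Tables were handled in Python 3.11.15 with pandas 2.3.3, and figures drawn with matplotlib 3.10.9.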

Additional observations from a re-analysis of the deposited data

How the results depend on the processing

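Alternatives tried were scaling by DESeq2's size factors or by library size alone, no filter on low counts, a mean of at least 10 CPM, the Wald test of DESeq2, limma-voom, a replicate block, leaving out ribosomal RNA genes, and each library left out in turn. Apart from the left-out libraries, the counts of genes and of matricellular list genes called stayed within 1.5 times in all 96 cases. With a library left out, between 3015 and 5031 genes were called for *in vivo* versus D7 organoids (5043 with all), the lowest without D7 replicate 2. For D7 versus D3 organoids it was between 1183 and 3417 (3011 with all), and again the lowest was without D7 replicate 2. Scaled by library size alone, the median of all genes moved to 0.23, 0.29 and 0.31 for *in vivo* TECs, D3 and D7 organoids over 2D.

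The replicate numbers share no stated litter or day, and deviations of same-numbered libraries correlated between 0.0109 and 0.116. The replicate block called 6366 genes for *in vivo* versus 2D, 4475 and 5452 for *in vivo* versus D3 and D7 organoids, 5925 and 6907 for D3 and D7 organoids versus 2D, and 3585 for D7 versus D3 organoids.

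Differences near 0 changed sign. *Sparc* in D7 organoids versus 2D became -0.015 with DESeq2's test or size factors, -0.0061 with no filter and -0.02 without ribosomal RNA genes, and -0.0025, -0.021 and -0.044 without 2D replicate 2, D3 replicate 2 and D7 replicate 2 (up to 0.10 without D7 replicate 1). *Vcan* in *in vivo* TECs versus 2D became -0.23 and -0.0063 without 2D replicate 1 and *in vivo* replicate 2 (up to 0.58 without 2D replicate 2), and in D7 organoids versus 2D it became 0.094 without normalization and 0.34 and 0.015 without 2D replicate 2 and D7 replicate 1 (down to -0.47 without 2D replicate 1). *Postn* in D7 organoids versus 2D became 0.98 without 2D replicate 2 (-1.33 without replicate 1), and *Spp1* in D3 organoids versus 2D became -0.12 without 2D replicate 2 (0.71 without replicate 1). The cause was not tested. For the 6 genes named by class, under alternatives that kept all libraries, 267 results held their call and direction, 1 lost its call, 9 gained one and 5 changed sign. With a library left out, 255 held, 20 lost their call, 5 gained one and 8 changed sign. With all libraries, the calls gained were those of *Thbs1* in *in vivo* TECs versus D3 organoids (DESeq2's Wald test, no filter and the replicate block) and in D7 versus D3 organoids (DESeq2's Wald test and no filter), of *Vcan* in D7 versus D3 organoids (limma-voom, no filter and the replicate block), and of *Fbn1* in D7 versus D3 organoids (a mean of at least 10 CPM), and the call lost was that of *Vcan* in D3 organoids versus 2D without normalization. With 2 libraries per group, counts under about 10 in a library limit, among others, *Postn*, *Thbs1* and *Ccn1* in organoids, *Ecm1*, *Spp1*, *Ccn2* and *Dmp1* *in vivo*, *Eln* and *Fbn2* in 2D, and *Ccn2* and *Loxl2* in D7 organoids.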

Other observations

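*Spp1* lies on chromosome 5 in a cluster with 4 other genes for acidic phosphoproteins of bone and tooth, all on the plus strand of GRCm39. *Mepe* ends 96 kb before *Spp1*, *Ibsp* 123 kb, *Dmp1* 220 kb and *Dspp* 254 kb. Within this cluster, *Spp1* and *Dmp1* had counts in all 6 culture libraries, and *Dmp1* was above 2D in D3 organoids, as the report gives, where the ranges of *Spp1* overlapped. From D3 to D7, *Dmp1* fell by 1.04 on the log2 scale (SE 0.25, adjusted p = 0.0084), while *Spp1* fell by 5.85. The *Dmp1* call was lost without D3 replicate 1 (a fall of 0.82) or D7 replicate 2 (a fall of 0.95). *Ibsp*, for bone sialoprotein, had 11 and 10 counts *in vivo*, 2 and 1 in 2D, 1 and 0 in D3 organoids, and 0 in both D7 libraries, and was not tested because it failed the filter. *Dspp* and *Mepe* had 0 counts in all 8 libraries, which allows up to 3 counts in each, from counting error alone.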
